A study of Mus musculus with 8 samples.

Results

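Latrophilins are adhesion G protein-coupled receptors, and teneurins and FLRT proteins are the cell-surface ligands that bind them from a neighbouring cell. The 10 genes of these families, *Adgrl1*, *Adgrl2* and *Adgrl3* for the latrophilins, *Tenm1* to *Tenm4* for the teneurins and *Flrt1* to *Flrt3* for the FLRTs, were taken by symbol from the 54281 genes of the deposited tables, and each symbol stood in 1 row. They were chosen by their levels in EpiLCs and by their difference between *Tet1* KO and WT lines, so values of KO against WT are a description. Counts of calls in that contrast are given beside the share of all genes called, and support nothing. RNA was sequenced from EpiLCs, epiblast-like cells that model the formative epiblast before gastrulation. Male mouse ESC lines of the B6129S6F1 background were derived from blastocysts: 4 lines were *Tet1* KO through the tm1Koh allele (KO1, KO9, KO15 and KO25) and 4 were WT littermate lines (WT7, WT12, WT17 and WT34). All were kept in 2iL medium (MEK inhibitor, GSK3β inhibitor and LIF) for at least 5 passages and then grown on fibronectin for 2 days in N2B27 with 1% KOSR and 12 ng/ml bFGF, without Activin A. Each line gave 1 library, so a line counts as 1 replicate, and a line is a single derivation carried in culture. Names of the data columns end in b1 for KO1, KO9, WT7 and WT17 and in b2 for KO15, KO25, WT12 and WT34, and the sources used here do not explain the suffix.

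A latrophilin has a long extracellular part with a lectin-like and an olfactomedin-like domain, followed by the autoproteolysis domain and the membrane-spanning segments of adhesion receptors. The lectin-like domain binds teneurins, large single-pass proteins that also pair with each other, and the olfactomedin-like domain binds FLRTs, leucine-rich repeat proteins that also bind UNC5 receptors and FGF receptors. The families are best known from synapse formation and axon guidance, and FLRT2 and FLRT3 also from cell adhesion in the early embryo.

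Library totals were 13916576 to 23680839 counts. *Tet1* checked the genotypes: it was at 38.5 to 54.2 CPM (counts relative to the TMM-scaled library size) in KO lines and at 559 to 851 CPM in the WT, a log2 difference of -3.97 (SE 0.17, adjusted p = 2.09e-05, edgeR's quasi-likelihood test over 17272 genes). Titles and cell line labels differ for 2 libraries: WT12 by its title is WT9 by its label, and WT17 by its title is WT12 by its label. Titles were used, and both are WT either way. All 10 markers of core and formative epiblast were at 1 TPM (transcript abundance per length, as deposited) or more on average, and they summed to 982 to 1151 TPM in single libraries. Of the 10 neural markers 3 reached 1 TPM, and the list summed to 8.25 to 16.9 TPM.

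Promoters of genes that went together in these data are shown in advance of their values. *Adgrl2* and *Flrt2* were higher in every KO line than in every WT line, and *Tenm4* and *Flrt3* were higher in every b2 library than in every b1 library. TET1 acts on methylated CG sites, so capitals mark CG, which reads the same on both strands. The windows are the 250 bases before a RefSeq start (GRCm38.p6), 5′ to 3′ on the strand of the gene: *Adgrl2* chr3:148954636-148954885, minus strand, *Flrt2* chr12:95691976-95692225, plus strand, *Tenm4* (the first of its starts) chr7:96170994-96171243, plus strand, and *Flrt3* chr2:140671477-140671726, minus strand.
Adgrl2: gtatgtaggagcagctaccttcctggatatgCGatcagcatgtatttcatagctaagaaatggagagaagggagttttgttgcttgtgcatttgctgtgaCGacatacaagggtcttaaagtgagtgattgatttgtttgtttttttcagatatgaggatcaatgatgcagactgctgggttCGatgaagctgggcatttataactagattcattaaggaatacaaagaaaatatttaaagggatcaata
Flrt2: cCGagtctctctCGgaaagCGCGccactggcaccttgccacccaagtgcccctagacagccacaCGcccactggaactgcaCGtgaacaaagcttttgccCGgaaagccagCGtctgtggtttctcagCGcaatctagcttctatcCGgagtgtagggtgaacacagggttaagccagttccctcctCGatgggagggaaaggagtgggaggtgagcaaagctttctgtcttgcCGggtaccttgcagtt
Tenm4: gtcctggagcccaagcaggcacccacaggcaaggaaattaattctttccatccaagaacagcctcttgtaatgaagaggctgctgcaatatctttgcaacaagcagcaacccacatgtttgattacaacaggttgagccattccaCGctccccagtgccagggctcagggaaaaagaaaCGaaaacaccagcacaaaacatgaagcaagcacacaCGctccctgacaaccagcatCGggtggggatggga
Flrt3: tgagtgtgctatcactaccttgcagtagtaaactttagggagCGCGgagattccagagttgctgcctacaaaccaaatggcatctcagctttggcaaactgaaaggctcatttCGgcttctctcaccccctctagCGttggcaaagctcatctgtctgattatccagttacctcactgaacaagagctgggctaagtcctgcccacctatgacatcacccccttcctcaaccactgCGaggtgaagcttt
*Flrt2* had 12 CG, *Flrt3* 5, *Tenm4* 4 and *Adgrl2* 3. Over the 32851 RefSeq promoters of the table the median was 6, and 92.1% of them held at least 1. At least as many CG as in the window were found in 33.5% of promoters for *Flrt2*, 55.6% for *Flrt3*, 62.2% for *Tenm4* and 71.0% for *Adgrl2*. At the second *Tenm4* start, 40.4 kb inside the annotated gene, the window held 8 CG, and 43.0% of promoters had at least as many. The *Adgrl2* start lies 35.9 kb inside the annotated gene. Which start the cells used was not measured for any of these genes. RefSeq windows were matched for 9 of the 10 genes.

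The families differed in level far more than the genotypes did. On the TPM scale the latrophilins summed to 46.9 to 66.3 TPM in single libraries, the teneurins to 3.38 to 6.94 TPM and the FLRTs to 0.603 to 1.49 TPM, so in every library receptor transcripts outnumbered those of both ligand families. *Adgrl1* was the highest at 40.5 ± 5.72 TPM (mean ± SD, n = 8 libraries), above 95.6% of all genes, and *Adgrl2* followed at 13.7 ± 3.17 TPM. *Tenm3* led the teneurins at 3.38 ± 0.451 TPM. Then came *Adgrl3* at 1.91 ± 1.15 TPM and *Tenm4* at 1.43 ± 0.639 TPM. These 5 genes had a mean of 1 TPM or more. *Flrt3* stood at 0.559 ± 0.266 TPM, *Tenm1* at 0.320 ± 0.164 TPM, *Flrt2* at 0.311 ± 0.111 TPM and *Flrt1* at 0.0537 ± 0.0191 TPM. *Tenm2* was at 0 in 7 libraries and had 2 counts in KO9, under the limit of 3 counts that a count of 0 allows (0.125 to 0.219 CPM by library, counting error only).

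Neighbours in this order were apart in range at *Adgrl1* over *Adgrl2*, *Adgrl2* over *Tenm3*, *Flrt2* over *Flrt1* and *Flrt1* over *Tenm2*. Elsewhere the ranges overlapped: *Tenm3* lay above *Adgrl3* in 7 of 8 libraries, *Adgrl3* above *Tenm4* in 5, *Flrt3* above *Tenm1* in 6 and *Tenm1* above *Flrt2* in 3. *Tenm4* was above *Flrt3* in 8 of 8 libraries, though the ranges over libraries met. *Tenm1* and *Flrt2* changed places when levels were averaged as log2(TPM + 0.1).

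**Figure D1:**
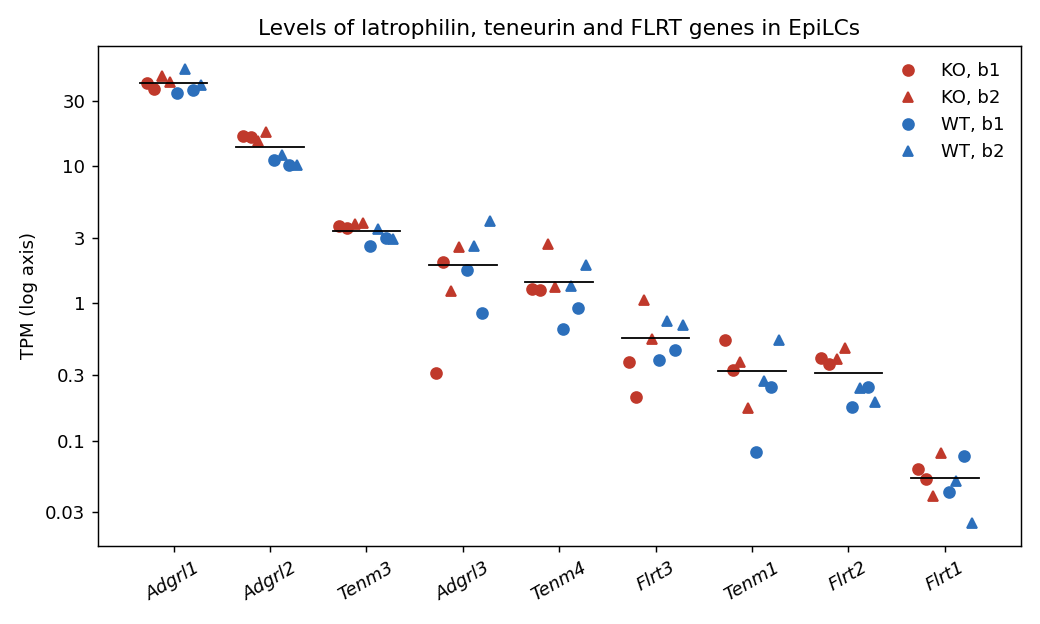
Level of 9 genes in TPM (log axis, vertical) ordered by mean (line), with 1 point per library, colour for genotype and shape for the column suffix. *Adgrl1* and *Adgrl2* stand apart from each other and from the rest, while *Adgrl3* spreads from 0.311 to 3.97 TPM. *Tenm2*, at 0 in 7 libraries, is left out.

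Of the latrophilins, *Adgrl2* was the receptor whose KO and WT lines did not overlap, though the main edgeR fit did not call it. In CPM, its level was 147 in KO1, 136 in KO9, 132 in KO15 and 144 in KO25, against 101 in WT7, 95.8 in WT12, 85.1 in WT17 and 84.5 in WT34. All KO lines exceeded all WT lines, with a gap between 101 and 132 CPM. Means were 140 ± 6.96 CPM in KO and 91.7 ± 8.26 CPM in WT (SD, n = 4 each), a log2 difference of 0.61 (SE 0.09). The size was alike in both column suffixes, 0.61 (SE 0.10) in b1 and 0.62 (SE 0.14) in b2. In bulk RNA, more cells of a type and more RNA per cell cannot be told apart.

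*Adgrl1*, whose level is the highest of the 10, did not follow. In b1 libraries KO1 and KO9 were at 224 and 207 CPM and WT7 and WT17 at 195 and 198 CPM, and in b2 libraries KO15 and KO25 were at 266 and 211 CPM and WT12 and WT34 at 280.5 and 237 CPM. Both KO lines were above both WT lines in b1, and the genotypes overlapped in b2 and over all lines. The log2 difference was -0.00 (SE 0.13), with 0.14 (SE 0.06) in b1 and -0.11 (SE 0.16) in b2. *Adgrl2* therefore made up more of the latrophilin TPM in KO lines, 24.8 to 29.7% against 18.2 to 23.6% in WT lines, and the share of *Adgrl1* was 66.6 to 73.2% against 72.7 to 77.9%. For *Adgrl2* these shares did not overlap between genotypes, and for *Adgrl1* they met.

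*Adgrl3*, a latrophilin studied mostly in brain, was low in counts. In KO lines its CPM was 2.44 (KO1), 2.26 (KO9), 5.09 (KO15) and 3.72 (KO25), and in WT lines 3.13 (WT7), 2.71 (WT12), 2.92 (WT17) and 2.90 (WT34). WT lines were close together, and the KO lines lay on both sides of them: the b1 lines KO1 and KO9 below every WT line, the b2 lines KO15 and KO25 above. The log2 difference of KO from WT was 0.21 (SE 0.28) over all lines, -0.37 (SE 0.29) in b1 and 0.66 (SE 0.34) in b2. Without KO15 it was -0.07. An interaction of genotype and suffix was tested for every gene, and it was called for none of 18762 genes (edgeR, adjusted p under 0.05), with 279 genes at an unadjusted p under 0.05. *Adgrl3* was the 1 of the 9 genes among these, with an interaction of 1.02 (SE 0.39), which is a description.

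Among the ligands, *Flrt2* had the widest relative gap between genotypes. In CPM it was at 4.45 in KO1, 3.86 in KO9, 4.62 in KO15 and 4.45 in KO25, against 1.76 in WT7, 2.34 in WT12, 2.40 in WT17 and 2.27 in WT34. All KO lines were above all WT lines, on 61 to 95 counts in KO libraries and 32 to 56 in WT libraries. The KO mean was 4.35 ± 0.334 CPM and the WT mean 2.19 ± 0.293 CPM (SD, n = 4 each), a log2 difference of 0.98 (SE 0.19), with 0.99 (SE 0.29) in b1 and 0.98 (SE 0.33) in b2. On the TPM scale *Flrt2* stayed under 0.5 in every library.

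*Tenm3*, the main teneurin here, lay between 38.2 and 52.5 CPM in KO lines, and its WT values were 25.4 to 39.4 CPM. The ranges overlapped in CPM, since WT12 reached 39.4 and KO9 was at 38.2. Within a suffix they did not: in b1 KO1 and KO9 were at 40.2 and 38.2 CPM and WT7 and WT17 at 25.4 and 26.5 CPM, and in b2 KO15 and KO25 were at 52.5 and 51.0 CPM and WT12 and WT34 at 39.4 and 35.2 CPM. KO exceeded WT by a log2 difference of 0.52 (SE 0.17), 0.59 (SE 0.09) in b1 and 0.48 (SE 0.15) in b2. In TPM every KO line (3.56 to 3.87) was above every WT line (2.64 to 3.47). With an offset for the length of the transcripts given the reads the log2 difference was 0.33.

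The other ligands overlapped between genotypes over all lines. *Flrt3* ran from 1.80 to 9.03 CPM in KO lines and, among WT lines, from 3.30 to 6.09 CPM (log2 difference -0.06, SE 0.45), and without KO15 the difference was -0.64. Within b1 both KO lines of *Flrt3*, at 3.05 and 1.80 CPM, lay below both WT lines, at 3.30 and 3.72 CPM (-0.53, SE 0.34), and within b2 the genotypes overlapped (0.17, SE 0.38). *Tenm4* had KO values of 13.4 to 43.6 CPM and WT values of 12.0 to 33.8 CPM (0.12, SE 0.44), and without KO15 it was -0.36. *Tenm1*, the X-linked teneurin, had KO values of 2.06 to 3.23 CPM and WT values of 2.03 to 3.61 CPM (0.21, SE 0.27), and *Flrt1*, on 5.26 to 22.2 counts, at 0.571 to 1.17 and 0.354 to 1.04 CPM (0.26, SE 0.39). Within each suffix too the genotypes overlapped for *Tenm4*, *Tenm1* and *Flrt1*.

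**Figure D2:**
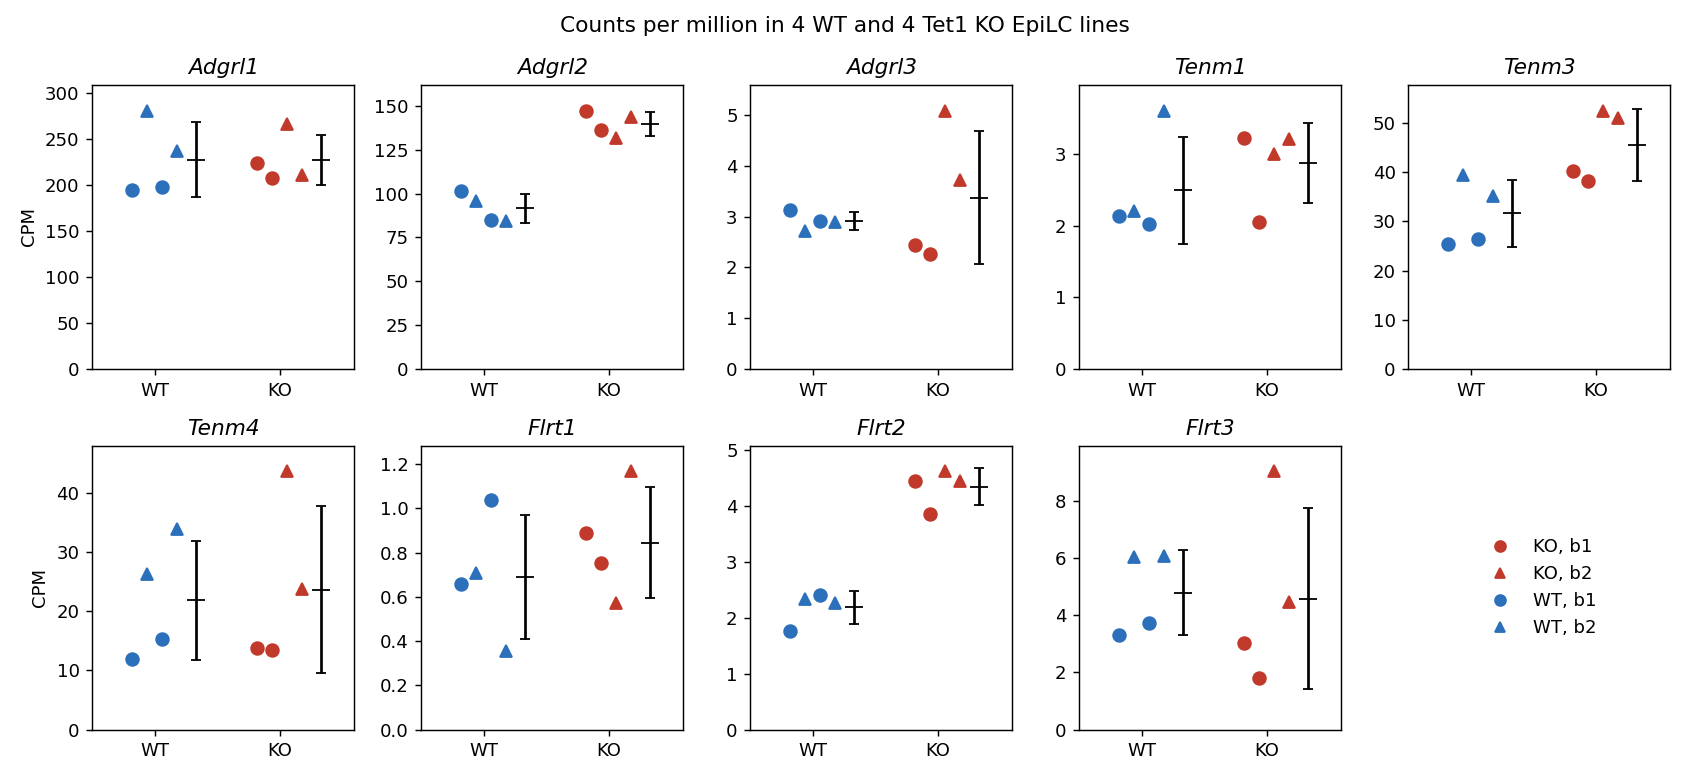
CPM of 9 genes by line (vertical axis from 0 in each panel), WT in blue and KO in red, circles for b1 and triangles for b2 libraries, and mean with SD (n = 4) in black. KO and WT are apart for *Adgrl2* and *Flrt2*, b1 and b2 for *Tenm4* and *Flrt3*, and for *Tenm3* the genotypes are apart within each suffix.

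The genes were chosen on this contrast, overall and within each suffix, so the following counts describe the choice and nothing is read from them against the shares of all genes. Every KO line above every WT line was found for 2 of the 9 genes that passed the filter on low counts, *Adgrl2* and *Flrt2*, and for 2.39% of all 17272 genes. edgeR called 0 of the 9 and 0.0405% of all genes between genotypes, and 3 of the 9 were under an unadjusted p of 0.05, as were 970 of all 17272 genes. With the suffix as a block, *Adgrl2* and *Tenm3* were called higher in KO, as were 0.107% of all genes, and DESeq2 called *Adgrl2* and *Flrt2*, with 0.405% of all genes called higher in KO.

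Between the column suffixes, the ligands *Tenm4*, *Flrt3* and *Tenm3* were higher in b2, and no gene of the families was called lower. The rule that chose the genes did not use this contrast, but they were chosen with earlier results of these data known. Each suffix holds 2 KO and 2 WT lines, and genotype was in the model. *Tenm4*, a teneurin required for gastrulation in the mouse, was at 13.7 and 13.4 CPM in KO1 and KO9 and at 12.0 and 15.2 CPM in WT7 and WT17, all b1. In b2 it was at 43.6 and 23.8 CPM in KO15 and KO25 and at 26.3 and 33.8 CPM in WT12 and WT34. The 4 b1 libraries were close together, and every b2 library lay above them. The log2 difference was 1.21 (SE 0.18, adjusted p = 0.00212, edgeR with Benjamini-Hochberg adjustment over 18762 genes). On the deposited TPM it was smaller and not called, 0.46 (SE 0.19, adjusted p = 0.163) on log2(TPM + 1) and 0.76 (SE 0.29, adjusted p = 0.1405) on log2(TPM + 0.1) by limma. Its means were 1.03 TPM in b1 and 1.83 TPM in b2, and at such levels adding 1 shrinks a log2 difference by itself.

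*Flrt3*, which also acts in FGF signalling, had the same pattern on fewer counts. Its level was 3.05, 1.80, 3.30 and 3.72 CPM in KO1, KO9, WT7 and WT17, and 9.03, 4.45, 6.05 and 6.09 CPM in KO15, KO25, WT12 and WT34. No b1 library reached a b2 library. The log2 difference was 1.11 (SE 0.27, adjusted p = 0.0177 by edgeR), and without KO9 it was 0.91 and no longer called. *Tenm3* was higher in b2 within both genotypes, by a log2 difference of 0.45 (SE 0.07, adjusted p = 0.00309 by edgeR), though the ranges of b1 and b2 overlapped because KO lines were also higher. With the offset for transcript length its difference was 0.13 (SE 0.09, adjusted p = 0.374), and the call was lost.

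No receptor was called in this fit. *Adgrl1* was at 206 ± 13.1 CPM in b1 and 249 ± 31.2 CPM in b2 (SD, n = 4 each), a log2 difference of 0.26 (SE 0.09, adjusted p = 0.0740 by edgeR), and it was called by DESeq2 (adjusted p = 0.0403), with no filter on low counts and without KO25. *Adgrl2* gave -0.06 (SE 0.08), *Flrt2* 0.12 (SE 0.18), *Adgrl3* 0.39 (SE 0.25), *Tenm1* 0.33 (SE 0.24) and *Flrt1* -0.29 (SE 0.40), with adjusted p from 0.287 to 0.668 by edgeR. *Adgrl2* and *Flrt2*, whose KO and WT lines did not overlap in CPM, were thus not called between suffixes. *Tenm3*, whose genotypes were apart in CPM within each suffix, was called.

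Read against all genes, 3 of 9 called compares with 22.8% called in either direction and 12.3% called higher in b2, and 2 of 9 with every b2 library above every b1 library (*Tenm4* and *Flrt3*) compares with 13.3%. The median log2 difference was 0.33 over the 9 genes and -0.00 over all genes tested. Sums of 3 marker lists, of primitive streak and mesoderm, epiblast and feeder fibroblasts, did not overlap between suffixes. Primitive streak and mesoderm markers summed to 1.13 to 2.21 TPM in b1 and 2.28 to 4.62 TPM in b2, with 3 of 7 tested called higher, and 1 of the 10 reached 1 TPM on average. Epiblast markers summed to 982 to 1058 TPM in b1 and 1079 to 1151 TPM in b2, with 3 of 10 called higher. Feeder fibroblast markers went the other way, from 20.4 to 30.9 TPM in b1 to 5.87 to 17.8 TPM in b2, with 1 of 6 called lower, *Thy1* the highest of the list and *Postn* listed at 0 in every library. Extraembryonic endoderm markers summed to 2.63 to 4.21 TPM in b1 and 4.04 to 6.04 TPM in b2, with 0 of 8 called (0 at an unadjusted p under 0.05 by edgeR), and neural markers to 8.25 to 16.9 TPM in b1 and 12.5 to 16.6 TPM in b2, with 1 of 9 called higher. KO and WT lines overlapped in the sums of all 5 marker lists. The part of these cell types in the differences between suffixes was not tested.

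**Figure D3:**
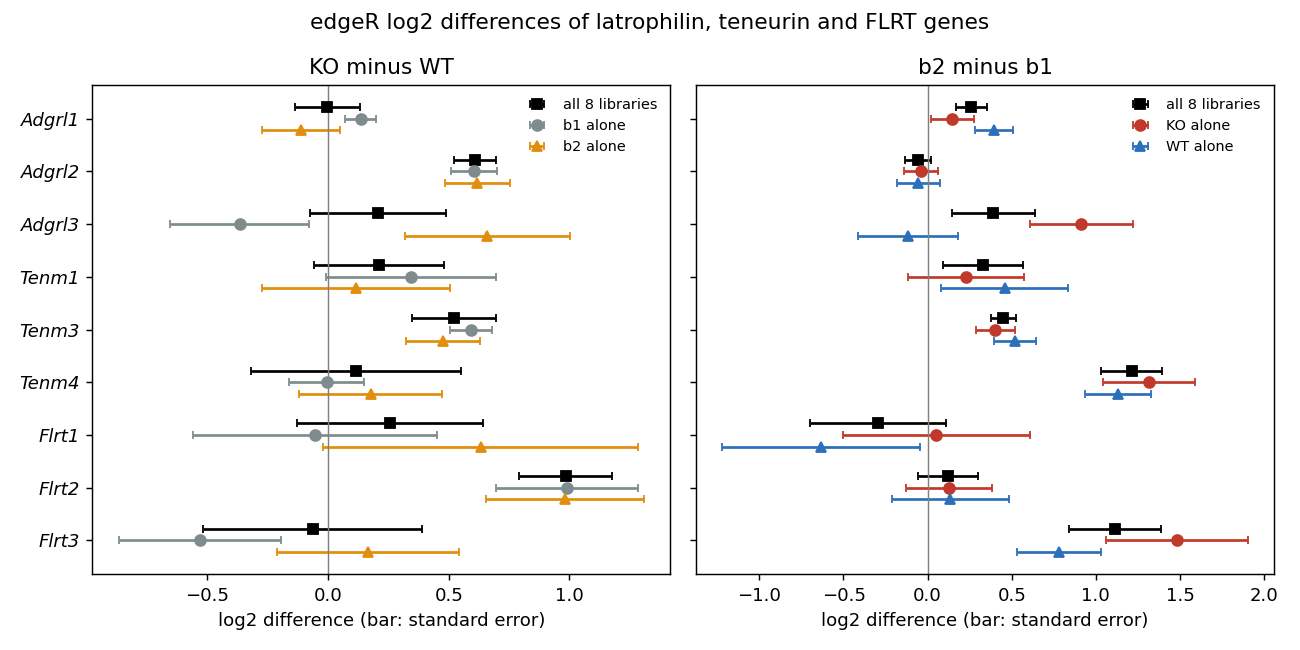
Log2 differences from edgeR (horizontal) for 9 genes, with bars for the standard error. On the left is KO minus WT for all 8 libraries and within b1 and b2. *Adgrl2*, *Tenm3* and *Flrt2* are on the KO side in each, and so is *Tenm1* by less. On the right is b2 minus b1 for all libraries and within KO and WT. *Tenm4*, *Flrt3* and *Tenm3* are on the b2 side in each, and so are *Adgrl1*, *Tenm1* and *Flrt2* by less.

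Several of these genes span large loci with many transcripts, and the deposited counts and TPM together show how long the transcripts were to which Salmon gave the reads. Count divided by TPM, relative to the median gene of the library, is called assigned length here. It weights transcripts by their TPM, so a few reads given to a short transcript can lower it. In bases it was scaled on 1428 genes with 1 annotated transcript, and *Flrt1*, with 1 transcript of 5872 bases, came out at 6293 to 6407 bases. A variation of more than 1.5-fold over the libraries was seen for 3 of the 8 genes with at least 10 counts in every library, *Adgrl3*, *Tenm1* and *Tenm4*, and for 26.6% of all such genes, whose median was 1.22-fold.

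*Adgrl3* (chromosome 5, 81020138 to 81825133, plus strand, GENCODE M21 on GRCm38) has 35 annotated transcripts of 241 to 6793 bases in that release, which is not the one used for the quantification. Its relative assigned length was 2.22 in KO1, 0.319 in KO9, 1.16 in KO15 and 0.408 in KO25, and 0.493 in WT7, 0.312 in WT12, 1.03 in WT17 and 0.202 in WT34. The relative lengths ranged 11.0-fold, spread over both genotypes and both suffixes, and the lengths in bases, whose scale has an intercept, ran from 525 to 3543, a 6.75-fold range. Assigned length was longest in KO1 and shortest in WT34, on 52.0 and 41.2 counts, where a few reads given to a short transcript weigh much. TPM of *Adgrl3* accordingly ran from 0.311 in KO1 to 3.97 in WT34, a 12.7-fold range, while its CPM varied 2.25-fold. Its place in the TPM order thus moved with the transcripts to which the reads were given.

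*Tenm1* (chromosome X, 42527866 to 43429126, minus strand, 6 transcripts) varied 4.23-fold, with 7.16 in WT7 and 5.29 in KO25 and 1.69 to 2.49 in the other libraries, on 39.0 to 69.0 counts. *Tenm4* (chromosome 7, 96171246 to 96911093, plus strand, 12 transcripts of 397 to 13172 bases) varied 1.92-fold on 218 to 839 counts. For *Tenm4* the short values came from both b1 KO lines, 3.04 in KO1 and 3.06 in KO9, against 4.48 to 5.83 in the other 6 libraries. The b1 WT lines, at 5.04 in WT7 and 5.01 in WT17, lay with the b2 libraries. *Tenm4* in TPM was accordingly higher in the b1 KO lines (1.28 and 1.25) than in the b1 WT lines (0.655 and 0.919), which CPM did not show. With the length offset the log2 difference between suffixes was 0.86 (SE 0.24, adjusted p = 0.0498 by edgeR).

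*Tenm3* (chromosome 8, 48227682 to 48843951, minus strand, 8 transcripts) varied by 1.46-fold. Its assigned length was 2.64 to 3.09 in b1 and 3.26 to 3.86 in b2, with no overlap, and within each suffix both KO lines were above both WT lines. The share of all genes with such a split in length was not counted. Of 18762 genes, edgeR called 4285 between suffixes without the length offset and 2444 with it. *Adgrl1*, *Adgrl2* and *Flrt3* kept nearly 1 length throughout, at 1.45 to 1.67, 2.27 to 2.52 and 2.30 to 2.45. *Flrt2* lay at 2.64 to 3.30 with the genotypes overlapping, so its TPM and CPM gave the same order of KO and WT.

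**Figure D4:**
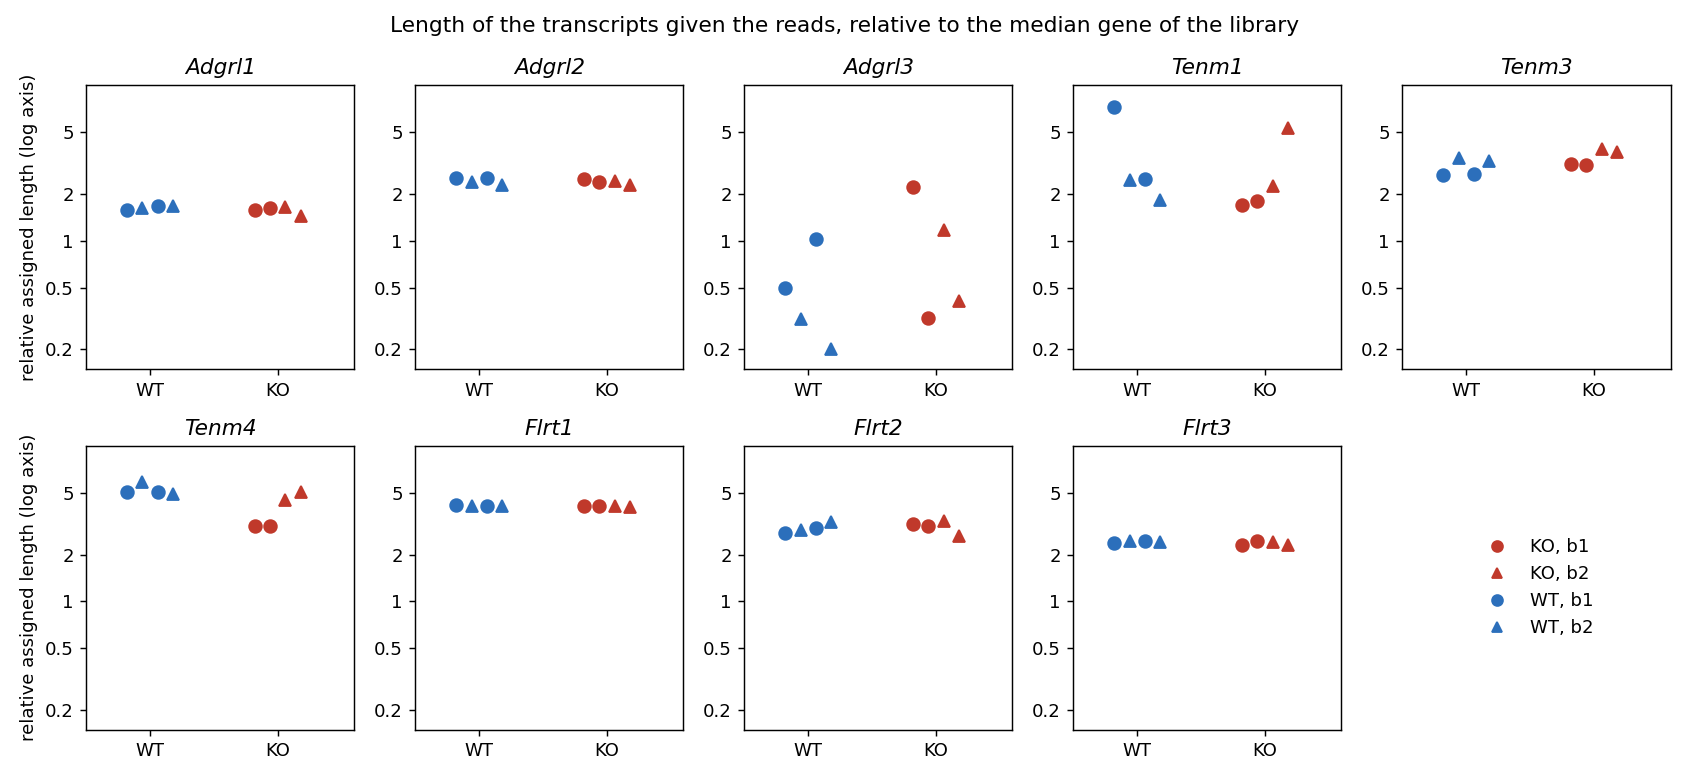
Assigned length of 9 genes by line, relative to the median gene of the library (log axis, the same in every panel), WT in blue and KO in red, circles for b1 and triangles for b2. *Adgrl3* is spread over 11.0-fold, *Tenm1* has high values in WT7 and KO25, and *Tenm4* is low in both b1 KO lines.

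Exons of a gene on the other strand overlap those of *Adgrl1*, *Adgrl2*, *Adgrl3*, *Tenm1*, *Tenm3* and *Tenm4*. Those of them found in the tables had at most 6 counts in a library. *Flrt1* lies in an intron of *Macrod1* and *Flrt3* in an intron of *Macrod2*, on the other strand and without a shared exon. *Macrod1* had up to 42.0 counts in a library and *Macrod2* up to 143. The strand setting of the quantification is not given in the sources used here.

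The wider pathway was looked at through 85 genes in 5 lists, of which 53 were tested between genotypes. None was called by edgeR, beside 0.0405% of all genes. At an unadjusted p under 0.05 by edgeR were 7, beside 970 of all 17272 genes. DESeq2 called 2, beside 106 of all 17272 genes called in either direction. The 2 were the atypical cadherin receptors *Celsr2* (log2 difference 0.70, adjusted p = 0.0131 by DESeq2) and *Celsr3* (-1.18, adjusted p = 0.00449 by DESeq2). For these edgeR gave an adjusted p of 0.358 each. In CPM, *Celsr3* was at 7.17 to 11.8 (KO) and 14.6 to 32.9 (WT), and *Celsr2* at 37.0 to 44.9 and 18.5 to 31.2. Neither overlapped between genotypes. Every KO line was above every WT line, as for *Celsr2*, for 2.39% of all genes. The share with every KO line below, as for *Celsr3*, is not given here.

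Between suffixes 57 of the 85 were tested, with 7 called higher and 2 called lower in b2, 15.8% against the 22.8% of all genes. The median log2 difference was 0.03. Among cytoplasmic partners of latrophilins and G proteins, with 16 tested, the scaffolds *Shank1* (1.24, SE 0.18, adjusted p = 0.00171 by edgeR) and *Shank2* (1.54, SE 0.29, adjusted p = 0.00561 by edgeR) were higher in b2. Lower were *Arhgef1*, a RhoA exchange factor (-0.56, SE 0.08), and *Gnas*, which encodes the stimulatory G protein (-0.27, SE 0.08). Other adhesion GPCRs had 2 of 15 higher, *Adgre5* (1.12) and *Celsr3* (0.55), and other leucine-rich repeat adhesion proteins 3 of 12, *Elfn1* (1.31), *Slitrk5* (1.08) and *Islr2* (0.472 CPM on average in b1 and 1.42 CPM in b2). *Shank1* and *Shank2* did not overlap between suffixes, at 2.36 to 3.52 against 5.84 to 8.09 CPM and 1.17 to 1.91 against 2.62 to 5.92 CPM. Nor did *Adgre5*, *Elfn1*, *Islr2*, *Arhgef1* and *Gnas*, while *Celsr3* and *Slitrk5* overlapped. Every b2 library was above every b1 library for 13.3% of all genes. The share with every b2 library below, as for *Arhgef1* and *Gnas*, is not given here.

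Of the other partners of FLRTs and teneurins, 9 were tested between suffixes and 0 called by edgeR, with 1 at an unadjusted p under 0.05: *Dag1*, encoding dystroglycan (0.22, SE 0.08). The netrin receptor *Unc5b*, which also binds FLRTs, was at 7.87 TPM on average and gave -0.13 (SE 0.14) between suffixes and 0.30 (SE 0.15) between genotypes, and the Slit receptor *Robo1* gave -0.35 (SE 0.21) and 0.46 (SE 0.25). Neurexins, neuroligins and their ligands had 5 tested and 0 called in either contrast by edgeR. Between genotypes 3 of the 5 were at an unadjusted p under 0.05 by edgeR. *Nlgn2* was lower in KO (-0.51, SE 0.16), with KO values of 12.8 to 17.2 CPM and WT values of 18.9 to 26.8 CPM. *Nlgn3* went the other way (0.93, SE 0.34) and overlapped, its KO lines spanning 1.56 to 4.52 CPM against 1.13 to 2.04 CPM. The share of all genes with every KO line below, as for *Nlgn2*, is not given here. DESeq2 was not summarised by list for the suffixes.

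The genes most like the leading member of each family over the 8 libraries were sought by the root mean square difference of centred log2 CPM among 10465 or 10466 genes. For *Adgrl1* they were *Cstf2*, *Agpat3* and *Usp6nl*, at 0.0496 to 0.0532 where *Adgrl1* itself had an SD of 0.20. For *Tenm3* they were *Etv6* (0.111), *Stox2* (0.123) and *Pgm2l1*, against an SD of 0.38, and for *Flrt3* they were *Armcx6*, *Ints5* and *Ttpal*, at 0.108 to 0.159 against 0.64.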

How the data were processed

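RNA-seq of *Tet1* KO (4 lines) and WT (4 lines) EpiLCs was analysed, with 1 library per line, from a stranded mRNA kit sequenced in single-end reads. By the paper's methods and the submitters' processing notes the authors used Trim Galore 0.6.4 for trimming and Salmon 0.14.1 for quantification on mouse transcripts (build mm10), with summing per gene in R 4.0.2. They deposited estimated counts and TPM. Deposited TPM are per transcript length, and the deposited estimated counts carry no normalization. No column of another series was used.

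Counts were rounded, which changed 27.8% of the values. 205 genes without a symbol stayed in the fits. edgeR 4.0.16 (R 4.3.3) with filterByExpr and TMM compared KO with WT (17272 genes) and b2 with b1 with genotype in the model (18762 genes) by the quasi-likelihood test. Genes under a Benjamini-Hochberg adjusted p of 0.05 were called, and the code was tested on simulated data. CPM are counts relative to the TMM-scaled library size. Lines are separate derivations, so p-values are set against the spread between lines. In the main fit of KO against WT that spread also holds the difference between suffixes. For *Tenm3* the SE was 0.17 there and 0.07 with the suffix as a block. Between suffixes, whose meaning is unknown, the p-values do not measure how much such a split would vary if repeated. Assigned length is count over TPM relative to the median of 11246 genes with at least 50 counts in every library. Its scale in bases was added after the data were seen. *Adgrl1* and *Adgrl2* rest on 1194 to 6726 counts per library, and *Flrt1*, the least precise, on 5.26 to 22.2. Positions, transcript numbers and transcript lengths are from GENCODE M21 (GRCm38, 53544 gene IDs matched with version), not from the GENCODE release named in the methods for the quantification, whose transcripts may differ, and promoters from RefSeq.

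The members and lists were chosen with earlier results of these data known. Named are all members, *Tet1*, of each pathway list up to 4 genes with the smallest p between suffixes and up to 2 between genotypes, and the 3 genes nearest to the leading member of each family (mean of at least 1 TPM, without predicted genes). *Thy1*, *Postn* and overlapping genes were named after their values were seen. Alternatives were DESeq2 1.42.0 as the test, its size factors or library size alone, genes unfiltered or kept at 10 or more counts throughout, an offset for assigned length, limma 3.58.1 on log2(TPM + 1) and log2(TPM + 0.1), each line left out, the suffix as a block or each suffix or genotype alone, no genotype in the model, other means for TPM and another reference for length.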

Additional observations from a re-analysis of the deposited data

Results flagged for a closer look

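In each gene, the lowest and the highest of the 4 lines of a genotype were compared with the others by Dixon's ratio in CPM, TPM and assigned length, in 54 groups of 4, where chance sets apart about 1 in 20. *Tenm1* in WT34 was at 3.61 CPM, with the other WT lines at 2.03 to 2.21. *Tenm4* in KO15 was at 2.74 TPM, with the other KO lines at 1.25 to 1.32. Assigned length set apart *Tenm1* in KO25 (5.29, others 1.70 to 2.26), *Tenm1* in WT7 (7.16, others 1.82 to 2.49) and *Tenm4* in WT12 (5.83, others 4.90 to 5.04). *Tenm4* in KO15 was also its highest value in CPM, 43.6, where it was not set apart.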

How the results depend on the processing

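No paired analysis was possible because the labels give no line number to both genotypes and, although KO and WT lines are described as littermate pairs, the sources used here do not match single lines to each other. Between genotypes, the number of the 9 genes called was 0 and became 2 with DESeq2 (*Adgrl2*, *Flrt2*) and 2 with the suffix as a block (*Adgrl2*, *Tenm3*), and 0 in the other alternatives run, including every line left out. Between suffixes it was 3, with 2 to 4 when a line was left out, 4 with no filter or DESeq2, 2 with the length offset or without genotype in the model, 1 in KO libraries alone, 0 in WT libraries alone (fits of 4 libraries each) and 0 of 5 tested with limma on log2(TPM + 1) or log2(TPM + 0.1). *Tenm4* between suffixes ran from 0.46 to 1.35 and *Tenm3* from 0.10 to 0.52, both lowest with limma on log2(TPM + 1). *Flrt3* ran from 0.78 to 1.48, without limma, which was run on genes with a mean of 1 TPM or more. All of these values were above 0. *Adgrl2* between suffixes turned from -0.06 to 0.026 with the length offset, 0.032 with limma on log2(TPM + 1) and 0.034 on log2(TPM + 0.1), *Adgrl3* to -0.12 in WT libraries alone and *Flrt1* to 0.050 in KO libraries alone, none of them called. Between genotypes *Adgrl2* kept 0.56 to 0.66 and *Tenm3* 0.24 to 0.64, both lowest with limma on log2(TPM + 1). *Flrt2* kept 0.90 to 1.04, also without limma, while *Adgrl3* was -0.57 with the length offset. The causes were not tested. The number of genes with a mean of 1 TPM or more stayed at 5, and that of genes with a length range over 1.5-fold at 3. Counts of 5.26 to 98.2 per library limit *Flrt1*, *Flrt2*, *Tenm1* and *Adgrl3*, and counts of 36.0 to 174 limit *Flrt3*.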
